A study of Mus musculus with 6 samples.

Results

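Krt81, Krt83 and Krt86 encode hair keratins and were measured here in mouse lymphocytes. They are 3 of the 24628 genes in the deposited expression table, picked by symbol with their levels in these libraries already known. Gene expression was profiled by RNA-seq in libraries from ILC1s, group 1 innate lymphoid cells, interferon-γ producers closely related to natural killer (NK) cells. The 3 libraries titled treatment, whose columns join the name Ncr1 to Rora, were taken as the conditional knockout (cKO) by elimination, and the 3 libraries titled Rorafl/fl are the floxed group. Rora encodes the nuclear receptor RORα, and Ncr1 encodes NKp46, a receptor of NK cells and ILC1s. The labels do not state whether a Cre driver stands behind the name Ncr1, which exons are deleted, or the strain, age, treatment, sort gate and number of animals, and they do not say whether the replicates are separate animals.

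Keratins are the intermediate filament proteins of epithelial cells. A type II keratin pairs with a type I keratin to form a filament, and the hair keratins are the type II and type I members that build the hard, sulphur-rich shaft of the hair. In humans, KRT81, KRT83 and KRT86 are expressed in the hair cortex, and variants in them cause monilethrix, a disorder of beaded, brittle hair. A role for hair keratins in lymphocytes is not established knowledge, and none is assumed here.

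The libraries held 21111333 to 22440170 reads assigned to genes in the cKO group and 20152146 to 21635232 in the floxed group. Rora itself was at 6.07 ± 0.334 RPKM, which divides reads by gene length and by library depth, in cKO and 7.42 ± 0.493 RPKM in floxed libraries (SD, n = 3 each) and did not pass in limma (Benjamini-Hochberg adjusted p = 0.242). Its groups did not overlap, it passed as lower in limma voom (adjusted p = 0.0238), and over its 16 refits the adjusted p ran from 0.0238 to 0.464. Whole-gene RPKM keeps exons outside a deletion, so this value does not check it. Of 9 ILC1 markers, 1 was higher and 3 were lower in cKO libraries in limma, with 1 higher and 7 lower at an unadjusted p under 0.05 and 1 higher and 5 lower in limma voom. Of the 3 lower calls in limma, that of Cxcr6 was lost in 8 of 16 refits and that of Il7r in 9, so that leaving out floxed replicate 3 kept 2 of the 3, and leaving out each of the other 5 libraries in turn kept 1, Il2ra. Of 14 NK cell markers, 6 were higher and 0 lower in limma, with 9 higher and 0 lower at an unadjusted p under 0.05 and 8 higher and 0 lower in limma voom. For comparison with these and later lists, 83 of all 12731 tested genes were higher and 85 lower in limma. At an unadjusted p under 0.05 in limma, 706 of them were higher and 1095 lower, and in limma voom 224 and 308. Xist, the RNA that silences an X chromosome, was at 9.43 ± 0.394 RPKM in cKO and 31.9 ± 3.16 RPKM in floxed libraries, and the Y-linked Ddx3y at 20.8 ± 0.438 RPKM in cKO and 10.4 ± 0.498 RPKM in floxed libraries. Genes induced by stress and cell handling also differed. Fos, an immediate early gene, was at 346 ± 13.7 RPKM in cKO and 168 ± 0.819 RPKM in floxed libraries (log2 difference 1.04, limma adjusted p = 0.000296). Hspa1b, a heat shock gene with a near-identical copy, was at 116 ± 6.07 RPKM in cKO and 34.3 ± 1.16 RPKM in floxed libraries (log2 difference 1.73, adjusted p = 0.000185). Xist was lower and Ddx3y higher in every cKO library than in every floxed library. By these RNAs, the mix of female and male cells differed between the groups. The differences of Xist, Ddx3y, Fos and Hspa1b follow the groups, so they cannot be told apart from genotype here. Their part in the difference of Krt83 was not tested.

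The RNA of these genes came almost wholly from Krt83, which was lower in the cKO libraries. Krt86 was more than an order of magnitude less abundant and also lower, and Krt81 was near the limit of detection in both groups. By reads, the label of hair keratins expressed in lymphocytes therefore rests on Krt83, although bulk RNA does not show which cells carried its RNA. For Krt86, with 5 to 64 reads in a library, and Krt81, with 0 to 15, the label is uncertain, since much of their sequence occurs in relatives.

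Krt83 (chromosome 15, 101485131 to 101491512, minus strand, mm10) was at 7.72, 7.41 and 7.68 RPKM in cKO libraries, against 21.9, 20.3 and 15.6 RPKM in floxed libraries. The cKO libraries lay close together, the floxed libraries spread more widely with replicate 3 lowest, and the groups did not overlap. The mean was 7.60 ± 0.170 RPKM in cKO and 19.3 ± 3.24 RPKM in floxed libraries (SD, n = 3 each), so the cKO level was 39.5% of the floxed level. The difference between group means of log2(RPKM + 1), cKO minus floxed, was -1.22 (SE 0.12, 95% confidence interval -1.51 to -0.94). In bulk RNA, fewer cells with Krt83 and less Krt83 RNA per cell cannot be told apart.

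Counting error was small for Krt83, which rested on 319, 288 and 312 reads in cKO libraries, against 874, 753 and 623 reads in floxed libraries. The exact Poisson intervals at 95% overlapped among all cKO libraries, the lowest bound being 6.58 and the highest 8.62 RPKM. Among floxed libraries, the interval of replicate 3 (14.4 to 16.9 RPKM) lay apart from that of replicate 1 (20.4 to 23.4 RPKM), so these replicates differed by more than counting error. All such intervals, here and below, cover counting error only and take every read as independent. Mates of a read pair counted singly would not be independent, and the intervals would then be too narrow. Whether reads were counted in that way was not examined. By level, Krt83 ranked 5959, 6086 and 5976 of the 24628 genes in cKO libraries, against 2814, 2992 and 3706 in floxed libraries. Its floxed mean stood above those of Il2ra, the IL-2 receptor α chain (7.45 ± 0.725 RPKM in cKO, 14.5 ± 0.638 RPKM in floxed), and Cxcr6, a chemokine receptor of resident lymphocytes (4.69 ± 0.453 RPKM in cKO, 8.90 ± 1.04 RPKM in floxed), on the same per-length scale.

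**Figure D1:**
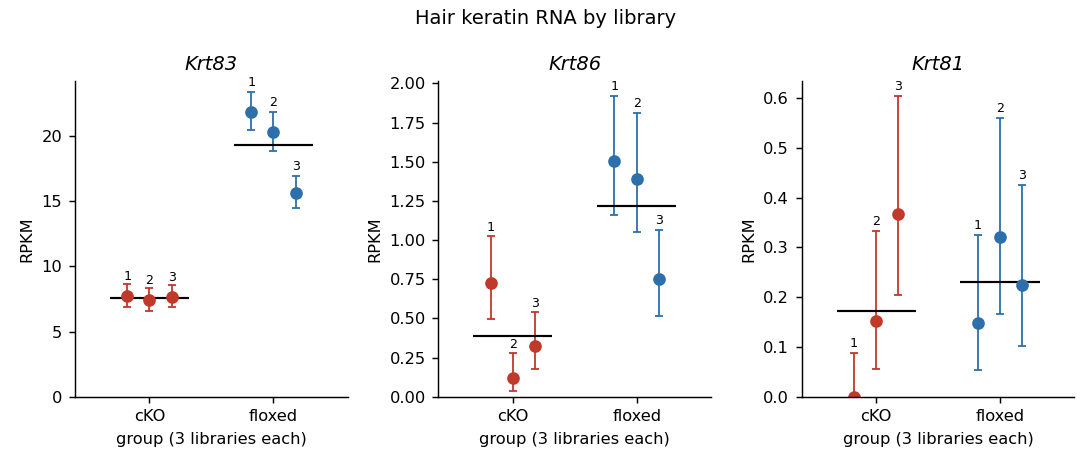
RPKM of Krt83, Krt86 and Krt81 in each library, with cKO left and floxed right. Points are libraries numbered by replicate, bars are exact Poisson 95% intervals of the read number, and black lines are group means. The scales differ between panels. Krt83 lies at 7.41 to 7.72 RPKM in cKO and 15.6 to 21.9 RPKM in floxed libraries, while Krt81 overlaps between groups.

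Krt86 (chromosome 15, 101473478 to 101479983, plus strand) was at 0.728, 0.121 and 0.324 RPKM in cKO libraries, against 1.504, 1.39 and 0.755 RPKM in floxed libraries. These values rested on 32, 5 and 14 reads in cKO libraries and on 64, 55 and 32 reads in floxed libraries. The highest cKO library and the lowest floxed library had the same number of reads, and the groups were separated by RPKM only through library depth. The mean was 0.391 ± 0.309 RPKM in cKO and 1.22 ± 0.404 RPKM in floxed libraries (n = 3 each), or 32.1% of the floxed level, and the difference on the log2(RPKM + 1) scale was -0.68, which understates the change of so low a gene.

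Krt81 (chromosome 15, 101459061 to 101463765, minus strand) was at 0, 0.153 and 0.366 RPKM in cKO libraries, against 0.149, 0.321 and 0.224 RPKM in floxed libraries. It had 0, 6 and 15 reads in cKO libraries and 6, 12 and 9 reads in floxed libraries. The groups overlapped, and the lowest and the highest library were both cKO. In cKO replicate 1, a count of 0 allows up to 0.0720 RPKM by the limit of 3 reads, and the two-sided exact Poisson interval, drawn for every library, reaches 0.0885 RPKM. The mean was 0.173 ± 0.184 RPKM in cKO and 0.231 ± 0.0861 RPKM in floxed libraries, and the log2 difference of -0.08 became 0.0301 without cKO replicate 1, so no direction can be given at this depth.

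The 3 genes were chosen with this contrast known, so their differences are a description and not a test. Only Krt83 passed the filter on low values (1 RPKM or more in 3 or more libraries), as 1 of 12731 genes. It is 1 of the 85 genes, 0.668% of those tested, that passed as lower in cKO at an adjusted p under 0.05, and 1.32% passed in either direction. In limma voom on reads recovered from the RPKM, 2.42% of the same genes passed as lower, Krt83 among them, and over all genes of the table without a filter 0.950% did, with Krt83 and without Krt86 and Krt81. Krt86 did not pass as lower in limma with a filter of 0.5 RPKM, where 0.565% of genes did, and neither Krt86 nor Krt81 did without a filter, where 0.146% did. Krt83 and Krt86 were lower with groups that did not overlap, as were 8.50% of all genes in the table. By the size of its log2 difference, Krt83 ranked 35 among the 7293 tested genes with a difference below 0.

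**Figure D2:**
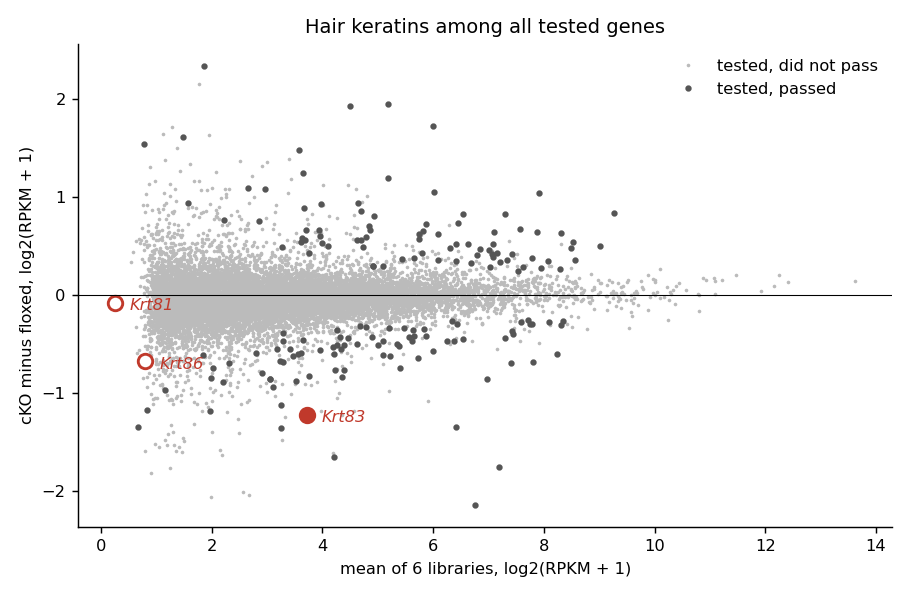
Difference between groups (cKO minus floxed, log2(RPKM + 1)) against the mean of the 6 libraries for the 12731 tested genes. Grey points did not pass and dark points passed at an adjusted p under 0.05; Krt83 is the filled red point at -1.22, and Krt86 (-0.68) and Krt81 (-0.08) are open because they did not pass the filter.

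Reads of the 3 genes, scaled to library depth as RPM, summed to 15.6, 14.2 and 15.5 RPM in cKO libraries, against 43.5, 40.7 and 30.7 RPM in floxed libraries. The mean was 15.1 ± 0.806 RPM in cKO and 38.3 ± 6.72 RPM in floxed libraries (SD, n = 3 each), or 39.4% of the floxed level. This sum does not depend on how reads were divided among the 3 genes. Krt83 took 90.9, 96.3 and 91.5% of the summed reads in cKO libraries, against 92.6, 91.8 and 93.8% in floxed libraries, so it was the main source in every library.

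The share of Krt86 in the summed reads varied most within the cKO group. It was 9.12% (95% Wilson interval 6.53 to 12.6%), 1.67% (0.716 to 3.85%) and 4.11% (2.46 to 6.77%) in cKO replicates 1, 2 and 3. In floxed replicates 1, 2 and 3 it was 6.78% (5.34 to 8.56%), 6.71% (5.19 to 8.63%) and 4.82% (3.43 to 6.72%). The floxed shares lay within the range of the cKO shares. Within each group of 3 libraries, Krt83 and Krt86 had the same order, with replicate 1 highest in both groups and cKO replicate 2 and floxed replicate 3 lowest, although the Krt83 values of cKO libraries differed by less than counting error. Krt81 did not follow that order.

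The neighbouring loci did not overlap in the deposited coordinates. Each of the 3 genes had 9 merged exons, of 1857 bases in all for Krt81, 1841 for Krt83 and 1960 for Krt86, and shared 0 exon bases with any other gene of the table, whereas 7546 of the 24628 genes (30.6%) shared some. They lie within 32452 bases, with 9712 bases between Krt81 and Krt86 and 5147 between Krt86 and Krt83, and Krt86 is on the opposite strand from the others. No other gene of the table spans into any of them. In GENCODE M21, also on GRCm38, the long noncoding gene Gm49501 lies on the plus strand between Krt86 and Krt83, 312 bases from Krt86 and 1818 bases from Krt83, and it was not analysed here. The symbol Krt83 has also been used for Krt87, and the coordinates of the row match RefSeq's Krt83, apart from 1 base at its lower end (101485130 in RefSeq).

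The 3 genes, adjacent in the table, are also close in sequence. Their GENCODE coding sequences were 93.1% identical between Krt81 and Krt83, 92.7% between Krt81 and Krt86 and 91.1% between Krt83 and Krt86. Of all 50-base windows along the protein-coding transcript, 23.2% in Krt83, 43.3% in Krt86 and 43.5% in Krt81 occurred exactly in a transcript of another gene, which was always Krt81, Krt83, Krt86 or the neighbouring Krt87. With 100-base windows these shares were 5.43% for Krt83, 24.6% for Krt86 and 29.0% for Krt81. Krt86 and Krt81 shared most, with 35.6% of the 50-base windows of Krt86 in Krt81, against 17.6% in Krt83.

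Most of the Krt83 transcript could thus be told apart from its relatives, while reads of Krt86 and Krt81 are less certain. No source used here states the read length or how reads that map to several places were handled. The floxed libraries had 623 to 874 reads on Krt83 and 32 to 64 on Krt86, and the part of reads exchanged between them was not tested.

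**Figure D3:**
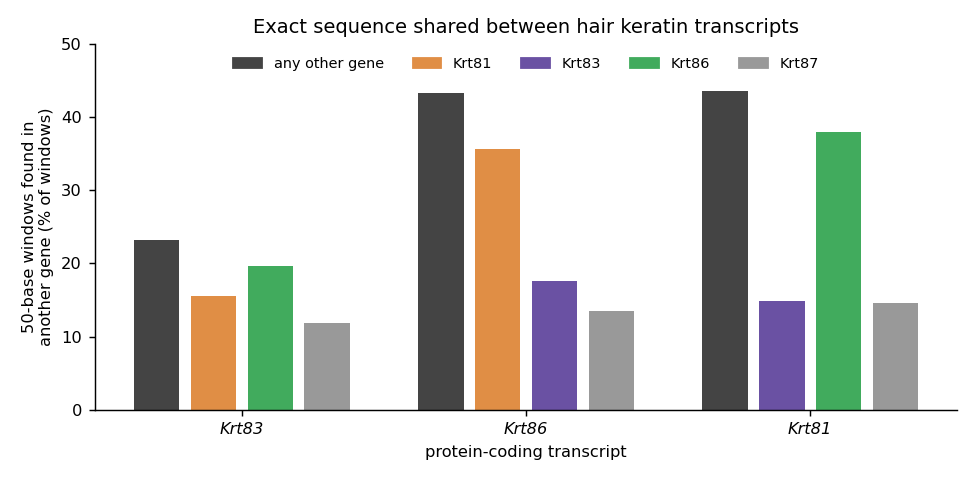
Share of 50-base windows of the Krt83, Krt86 and Krt81 transcripts found exactly in another gene's transcripts (GENCODE M21), in percent of windows. Dark bars give any other gene and coloured bars single genes; Krt83 has the lowest total, 23.2%, and Krt86 and Krt81 share most with each other.

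The other keratins were low, and no other keratin passed the test. The table held 22 other keratin genes, of which 5 had a mean of at least 0.1 RPKM in a group and 12 had at most 3 reads in every library. The most abundant was Krt8, the type II keratin of simple epithelia, at 0.988, 1.31 and 1.61 RPKM in cKO libraries, against 1.17, 1.48 and 1.54 RPKM in floxed libraries. The groups overlapped, and Krt8 did not pass (log2 difference -0.06, SE 0.15, limma adjusted p = 0.897). Krt8 was the only other keratin to pass the filter, and Krt8-ps, a pseudogene of it with which reads may be shared, was at 2.46 ± 0.474 RPKM in cKO and 2.57 ± 0.199 RPKM in floxed libraries.

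Krt18, the type I partner of Krt8, was at 0.519 ± 0.220 RPKM in cKO and 0.466 ± 0.229 RPKM in floxed libraries. Krt10, a type I keratin of the upper epidermis, was at 0.214 ± 0.127 and 0.143 ± 0.0857 RPKM, and Krt222, a keratin-like gene, at 0.221 ± 0.0490 and 0.229 ± 0.0214 RPKM, cKO before floxed in both cases. Krt80, an epithelial type II keratin, was at 0, 0 and 0.102 RPKM in cKO libraries and 0.208, 0.224 and 0 RPKM in floxed libraries. In all 4 genes the groups overlapped. The remaining 17 keratins had means of at most 0.0766 RPKM.

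In order of level, the cKO libraries had Krt83, then Krt8, then Krt18 and Krt86, which overlapped. In floxed libraries the order was Krt83, then Krt8 and Krt86, which overlapped, then Krt18. In both groups the lowest library of Krt83 was above the highest library of every other keratin. Of the 8 type I keratins in the table, 0 passed the filter, and none of the 8 was near the level of Krt83. Of the 27 type I keratins listed, the others had no row in the table, so no level can be given for them.

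**Figure D4:**
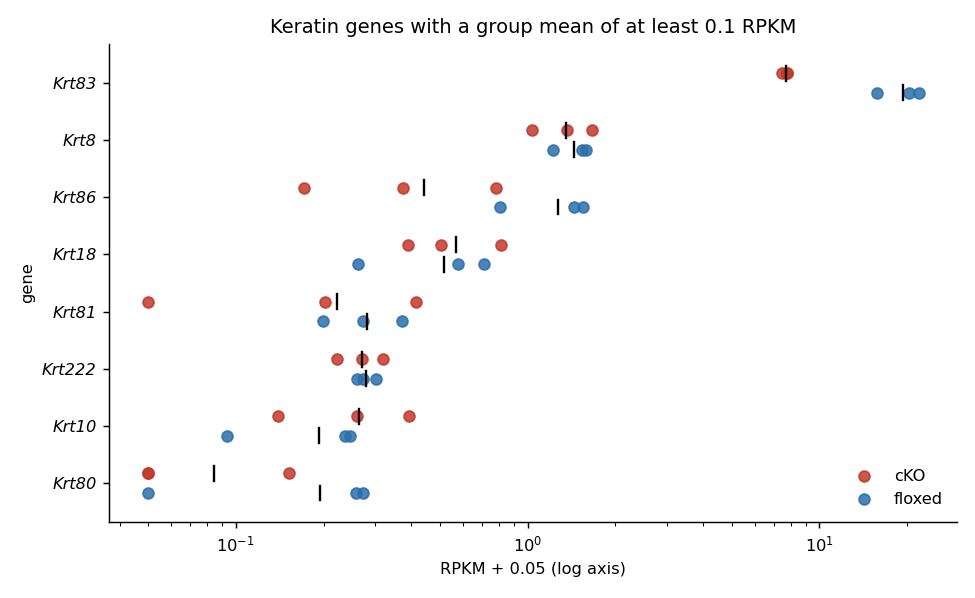
RPKM of each library (log axis, 0.05 added) for the 8 keratin genes with a group mean of at least 0.1 RPKM. Points are libraries, red for cKO above blue for floxed, and black ticks are group means. Krt83 stands to the right of all others in both groups and its groups lie apart, while those of Krt8, Krt18, Krt81, Krt222, Krt10 and Krt80 overlap.

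No tested gene near the hair keratins passed as lower, and the tested genes all lay on the side of Krt81. Of the 11 other genes within 250 kb, 4 passed the filter, and 0 passed the test in limma. The nearest of these 4, Atg101, lies 168127 bases away. On the side of Krt83 the genes were Krt6b, Krt6a, Krt5 and Krt71. None of them passed the filter, so that side was not tested. Nr4a1, a rapidly induced nuclear receptor gene 184269 bases away, was at 84.7, 80.1 and 81.3 RPKM in cKO libraries, against 66.6, 72.7 and 70.3 RPKM in floxed libraries. Its groups did not overlap, with cKO higher (log2 difference 0.23, SE 0.05, limma adjusted p = 0.101), and it passed in limma voom on recovered reads. Grasp, which encodes a scaffold protein of receptor trafficking, was at 12.4 ± 0.756 RPKM in cKO and 9.81 ± 0.960 RPKM in floxed libraries (log2 difference 0.31, SE 0.09, adjusted p = 0.181), also without overlap, as were 20.3% of tested genes in either direction.

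The autophagy gene Atg101, 168127 bases away, was at 26.4 ± 2.65 RPKM in cKO and 25.9 ± 0.222 RPKM in floxed libraries, and the activin receptor gene Acvr1b at 5.55 ± 0.244 and 5.74 ± 0.424 RPKM, cKO first. Neither passed (log2 difference 0.02, SE 0.07, adjusted p = 0.921 for Atg101; log2 difference -0.04, SE 0.08, adjusted p = 0.880 for Acvr1b). A330009N23Rik was at 0.426 ± 0.0450 RPKM in cKO and 0.471 ± 0.223 RPKM in floxed libraries. The other 6 were keratin genes. At an unadjusted p under 0.05, Nr4a1 and Grasp lay higher and 0 of these genes lower, and voom called Nr4a1 higher and 0 lower.

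**Figure D5:**
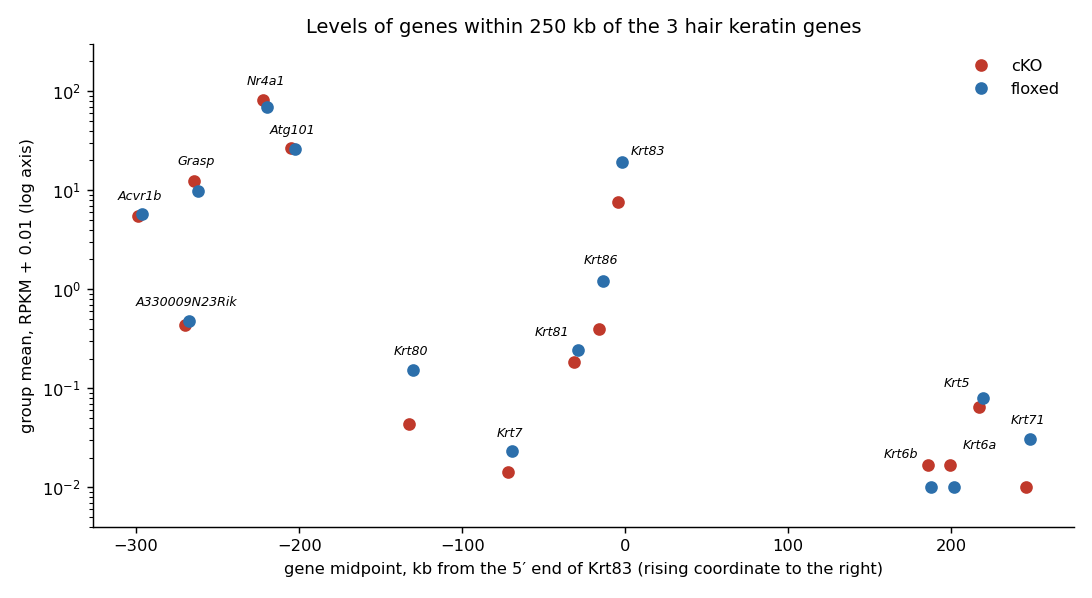
Group means (RPKM + 0.01, log axis) of the 3 hair keratin genes and the 11 other genes of the table within 250 kb, against the distance of the gene's midpoint from the 5′ end of Krt83 in kb. Red is cKO and blue floxed, drawn slightly left and right of the midpoint; distances within the 250 kb are between nearest exons. Krt83, Krt86 and Krt81 form a group near 0, and the keratins on either side (Krt80, Krt7, Krt6b, Krt6a, Krt5 and Krt71) have few or no reads.

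Other genes of the keratin cytoskeleton and the hair shaft showed no passing change. Of 17 other intermediate filament genes, 8 were tested and 0 rose or fell in limma, while at an unadjusted p under 0.05 there were 2 higher and 1 lower, and voom called 2 higher and 1 lower. Their median log2 difference was 0.05, beside -0.03 over all tested genes. Vim, the vimentin gene and the main intermediate filament of lymphocytes, was at 241 ± 3.37 RPKM in cKO and 218 ± 2.83 RPKM in floxed libraries (log2 difference 0.14, adjusted p = 0.140). The lamin gene Lmna was at 18.3 ± 1.26 and 13.7 ± 1.16 RPKM and Lmnb1 at 46.8 ± 0.850 and 55.0 ± 3.800 RPKM, cKO before floxed (adjusted p = 0.0945 and 0.160); these 3 genes are those voom called.

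Of 13 plakin and desmosome genes, whose proteins anchor intermediate filaments, 5 were tested and 0 passed in limma, at an unadjusted p under 0.05 or in voom (median 0.02). Plec, which encodes the linker plectin, was at 73.3 ± 4.09 RPKM in cKO and 76.6 ± 3.802 RPKM in floxed libraries. Of 17 regulators and enzymes of the hair shaft, 6 were tested and 0 passed in limma, at an unadjusted p under 0.05 or in voom (median 0.08). The most abundant, Gata3, a factor of both hair follicles and lymphocytes, was at 17.1 ± 2.08 RPKM in cKO and 15.7 ± 0.724 RPKM in floxed libraries.

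No marker of epithelial cells passed the test. Of 19 epithelial markers, 4 were tested and 0 passed in limma, with 1 higher and 0 lower at an unadjusted p under 0.05 and 0 in voom (median -0.01). Their summed level was 30.6 to 32.2 RPKM in cKO and 30.3 to 31.1 RPKM in floxed libraries, most of it from Sfn, a 14-3-3 protein gene, at 25.5 ± 0.668 and 24.8 ± 1.11 RPKM. Epcam, an epithelial adhesion molecule, was at 1.41 ± 0.609 RPKM in cKO and 2.06 ± 0.855 RPKM in floxed libraries, and the basal keratin genes Krt5 and Krt14 had means of 0.0550 and 0.0433 RPKM in cKO and 0.0702 and 0.0727 RPKM in floxed libraries.

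Some lymphocyte markers did move with Krt83, and their part in its difference was not tested. The summed level of the 9 ILC1 markers was 259 to 266 RPKM in cKO and 301 to 310.4 RPKM in floxed libraries. Most of this sum was Il7r, at 190 ± 1.93 RPKM in cKO and 228 ± 5.49 RPKM in floxed libraries. By log2 difference, 8 ILC1 markers lay below 0 and 1 above. The latter was Cd69, at 32.8 ± 0.437 RPKM in cKO and 21.4 ± 1.11 RPKM in floxed libraries. The 14 NK cell markers summed to 703 to 719 RPKM in cKO and 505 to 517 RPKM in floxed libraries. The 7 markers shared by ILC1s and NK cells summed to 882 to 908 RPKM in cKO and 1029 to 1045 RPKM in floxed libraries, with 0 higher and 1 lower in limma, 1 higher and 2 lower at an unadjusted p under 0.05 and 0 higher and 1 lower in voom. The lower one was Ncr1, at 246 ± 12.5 RPKM in cKO and 372 ± 10.8 RPKM in floxed libraries (log2 difference -0.60, limma adjusted p = 0.00446), a call kept in all 16 refits. The 7 B cell markers summed to 7.85 to 8.92 RPKM in cKO and 13.4 to 13.7 RPKM in floxed libraries, with 1 of 2 tested, Cd22, lower in limma. At an unadjusted p under 0.05, 0 of the B cell markers were higher and 2 lower, and in voom 0 higher and 1 lower. The 9 T cell markers summed to 56.3 to 62.0 RPKM in cKO and 61.6 to 66.0 RPKM in floxed libraries, with 1 of 6 tested, Cd3e, lower in limma. At an unadjusted p under 0.05, 0 of the T cell markers were higher and 2 lower, and in voom also 0 higher and 2 lower. The limma calls of Cd22 and Cd3e were each lost in 8 of 16 refits, among them each library left out in turn except cKO replicate 3 for Cd22. Of the markers of myeloid cells (3 tested), ILC2s and ILC3s (1 tested) and stromal cells (1 tested), 0 passed in limma or voom, and 1 myeloid and 1 stromal marker lay lower at an unadjusted p under 0.05. Every gene of the table had reads in some library, so a marker with a row could not be at 0 in all of them. Of the 19 epithelial markers, 15 had a row.

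The genes whose profile over the 6 libraries was most like that of each hair keratin were found by the root mean square difference of centred log2(RPKM + 1) values among 10039 named genes. The profiles include the difference between groups, so the likeness is a description. For Krt83 the nearest were Mir7033 (0.0816), Mir7092 (0.189) and Tsix (0.208), the antisense RNA of Xist. Mir7033 rested on 0 to 3 reads and Mir7092 on 7 to 21 reads per library. Tsix was at 4.79, 4.83 and 5.15 RPKM in cKO libraries, against 12.2, 16.9 and 13.8 RPKM in floxed libraries, and its reads cannot be told apart from those of Xist where the strand setting is not given.

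For Krt86 the nearest were Prrt1 (0.127), Trgv2 (0.137), a T cell receptor γ variable segment, and Recql4 (0.154), a DNA helicase gene. Prrt1 was at 2.03, 0.822 and 1.65 RPKM in cKO libraries, against 3.16, 3.49 and 2.59 RPKM in floxed libraries, and like Krt86 it was lowest in cKO replicate 2. For Krt81 the nearest were Tbl2 (0.0271), the immunoglobulin segment Igkv1-88 (0.0411) and the noncoding RNA gene Airn (0.0438), all with overlapping groups.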

How the data were processed

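The authors deposited RPKM values for 24628 genes in 6 libraries, with exon coordinates and gene lengths. Per the submitters' processing notes, the tools were edgeR 3.12.1, Subread 1.5.1, featureCounts and STAR 2.5.3a, with the build mm10. Which step each tool did, the strand setting and the annotation are not given in the sources read. Per the labels' protocols, RNA was extracted with TRIzol and prepared with a stranded mRNA kit. The number of value columns matched to no sample was 0.

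RPKM multiplied by gene length gave whole reads for 100% of values within 0.01 reads, from which depths and reads were recovered. The test was limma 3.58.1 in R 4.3.3 (lmFit, eBayes with trend, two-sided) on log2(RPKM + 1) for 12731 genes reaching 1 RPKM in 3 or more of the 6 libraries, with Benjamini-Hochberg adjustment over all of them. RPKM as deposited is not a count, so the main fit was made on its log scale. For testing, the recovered reads were used only in voom, as an alternative. Since separate animals are not stated, the p-values describe the spread among these libraries, possibly technical only. Every library held RNA of both Xist and the Y-linked Ddx3y, so a library may pool several animals, and n = 3 may not count animals. The script was tested on simulated data.

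The members and gene lists were chosen with earlier results of these data known. Named genes were the members, genes and keratins with a mean of at least 0.1 RPKM within 250 kb or among other keratins, up to 4 passing and 3 abundant genes a list (not all are printed), and the 3 nearest profiles per member, leaving out predicted genes, clone names and pseudogenes; Krt8-ps was added after its values were seen. Sequence windows came from GENCODE M21 transcripts. No promoter sequences are printed for Krt81, Krt83 and Krt86.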

Additional observations from a re-analysis of the deposited data

How the results depend on the processing

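Krt83 stayed lower in cKO libraries and on the same side of the threshold in all 17 fits run on it. Its log2 differences were -1.36 to -1.13 when 1 library was left out. The limma adjusted p came close to the threshold of 0.05 in such fits, reaching 0.0465 without cKO replicate 2. Krt86 was at -0.68, at -0.85 to -0.53 with 1 library left out, at -1.57 with a pseudocount of 0.1 and at -1.85 with voom on all genes, a setting chosen after seeing the data. It was fitted in limma with no filter and with a filter of 0.5 RPKM, and in voom on all genes. It passed in none of these fits (adjusted p = 0.411, 0.264 and 0.168). For Krt86 and Krt81, the values with 1 library left out or another pseudocount are differences of means, without a fit. Krt81 was at -0.08, at -0.19 to 0.0301 with 1 library left out, reversing to 0.0301 without cKO replicate 1, at -0.51 with a pseudocount of 0.1 and at -1.35 with voom on all genes. A pseudocount moves such low genes by its construction. The summed reads stayed at 35.8 to 42.3% of the floxed level with 1 library left out. Over all genes, 83 passed as higher and 85 as lower, against 124 and 71 with median centring and 85 and 73 with quantile normalization, which shifted differences by 0.04 log2. The counts were 44 and 36 with no filter, 39 and 35 without the trend, 224 and 308 with voom, 210 and 234 with voom on all genes, and 33 to 50 and 27 to 39 with 1 library left out. With the replicate number as a block they were 37 and 23. The titles give both groups the numbers 1 to 3. Deviations from the group mean had correlations of -0.03, 0.01 and 0.04 between same-numbered libraries. Between different-numbered libraries the correlations were -0.098 to 0.086. With means of only 3 libraries, such values cannot decide whether the numbers pair libraries, and the labels do not state it. Of 672 refits of 42 other named genes, 609 kept the side of the threshold, 54 lost a call, 9 gained one and 0 reversed a call. The cause was not tested where counts changed.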
